A study of Homo sapiens with 6 samples.

Results

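Most of the energy of a cell comes from the respiratory chain, a series of enzyme complexes in the inner mitochondrial membrane that pass electrons to oxygen and drive the ATP synthase. A few core subunits are made inside the mitochondrion from its own DNA, and all other subunits, the factors that assemble them, the proteins of the mitochondrial ribosome and the import pores are encoded in the nucleus. METH is a psychostimulant, and mitochondrial damage is a well known part of its toxicity to dopaminergic cells. The genes described here are the nuclear-encoded ones of this system. They were chosen by symbol (NDUF, SDHA to SDHD, UQCR, COX, ATP5, COA, COQ, CHCHD, MRPL, MRPS, TIMM, TOMM, TFAM and TFB genes), leaving out pseudogenes and antisense genes. The rule found 25 genes among the 4101 genes of the deposited table.

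The data came from SH-SY5Y, a human neuroblastoma cell line of wild-type genotype used as a model of dopaminergic neurons. Exposure lasted 24 h and was to METH at 2 mM in 3 libraries (METH) or to PBS alone, matched in volume, in the other 3 (PBS). Day 0 is the time stated in the labels of all samples. Nothing in the labels says whether the libraries of a group came from separate cultures, so the p-values measure the spread between these libraries. The numbers of the columns give the names used below, PBS 10 to PBS 12 and METH 1 to METH 3. Their depth, inferred from the spacing of the deposited values, was 86.8 to 110.8 M reads with PBS and 85.7 to 107 M reads with METH. Each of the 4101 genes is marked as differing between the groups by the authors, so that the table is a selection made on the same comparison. GENCODE 29 holds 243 protein-coding genes that fit the same rule. Those outside the table were not analysed here, among them every gene of complex II, the complex I assembly factors named NDUFAF, and TFAM, TFB1M and TFB2M.

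The identity of the cells was checked by fixed marker genes. Of 18 markers of noradrenergic neuroblastoma cells, 8 are in the table, among them GATA2 at 441 ± 57.1 CPM with PBS (SD, n = 3), and none was at 0 in any library. Of 8 markers of the mesenchymal-type cells that occur in neuroblastoma lines, VIM, SNAI2 and NOTCH2 are in the table, and none was at 0. Their summed level of 276 to 481 CPM with PBS and 544 to 810 CPM with METH was nearly all VIM (372 ± 105 and 681 ± 136 CPM, SD, n = 3 each). SNAI2 was at 2.06 and 4.10 CPM, and NOTCH2 at 8.29 and 5.98 CPM, a fitted log2 fold change of -0.43 that did not pass (limma adjusted p = 0.168). The part of these differences in the results below was not tested. None of 7 markers of fibroblasts, endothelial, blood, epithelial or glial cells is in the table. Since the table holds only genes marked as differing between the groups, this does not show whether those markers were expressed.

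Of the 25 genes, 19 had a higher fitted mean with METH (76%, against 50.4% of the whole table). Their median log2 fold change was 0.49, against 0.11 over all 4101 genes, 0.36 over the 3561 protein-coding genes of the table (53.5% of which had a higher fitted mean) and 0.29 over the 3763 genes whose PBS or METH mean reached 1 CPM. Levels were in CPM (reads scaled to the depth of the library, without regard to gene length), and limma on log2(CPM + 0.1) was used with p-values adjusted over the whole table (Benjamini-Hochberg) and a threshold of 0.1. By this test 11 genes were up-regulated, where 33.3% of the table was. They were NDUFB4, NDUFB6, NDUFS4, UQCRB, COA6, COX10, COX16, COQ10A, COQ10B, MRPL42 and MRPS30. Down-regulated were 2 genes, NDUFA4L2 and COX15, where 35.8% of the table was. In all, 13 of 25 (52%) passed, a smaller share than the 69.1% of the table. In 11 genes all METH libraries lay above all PBS libraries (31.0% of the table), in 3 genes they lay below (33.0% of the table), and in 11 genes the groups overlapped (in 64.0% of the table they did not). In bulk RNA, fewer cells of a type and less RNA per cell cannot be told apart.

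These counts depended on single libraries. Without METH 1, 1 gene was up-regulated (NDUFB4), as were 491 of the 4101 genes of the table. Without METH 2 there were 2 (NDUFB4 and COX16; 10.0% of the table), and without PBS 12 there were 5 (18.2% of the table), while without PBS 11 there were 15 (37.8% of the table). Calls over the whole table thus also fell when METH 1, METH 2 or PBS 12 was left out. The count of down-regulated genes was 4 without PBS 10 (30.1% of the table), 3 without PBS 11 (33.4%), and 1 without PBS 12, METH 2 or METH 3 (20.8%, 13.7% and 27.9%). NDUFB4 and NDUFA4L2 alone passed in each of the 6 fits that left out a library. Adjusted over the 19951 protein-coding genes of GENCODE 29, with the genes outside the table counted as unchanged, NDUFB4 alone passed (limma adjusted p = 0.0889). By that adjustment 10.2% of the table passed, 5.44% higher and 4.80% lower. With edgeR on the recovered reads, 11 genes rose and 4 fell, MRPS27 and TOMM40 being added to the latter (68.3% of the table passed, 28.4% higher and 39.9% lower). DESeq2 called 14 genes higher and 4 lower (73.0% of the table passed, 32.7% higher and 40.3% lower). At a limma threshold of 0.05, 6 genes rose and 1 fell (36.1% of the table passed, 17.0% higher and 19.1% lower).

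**Figure D1:**
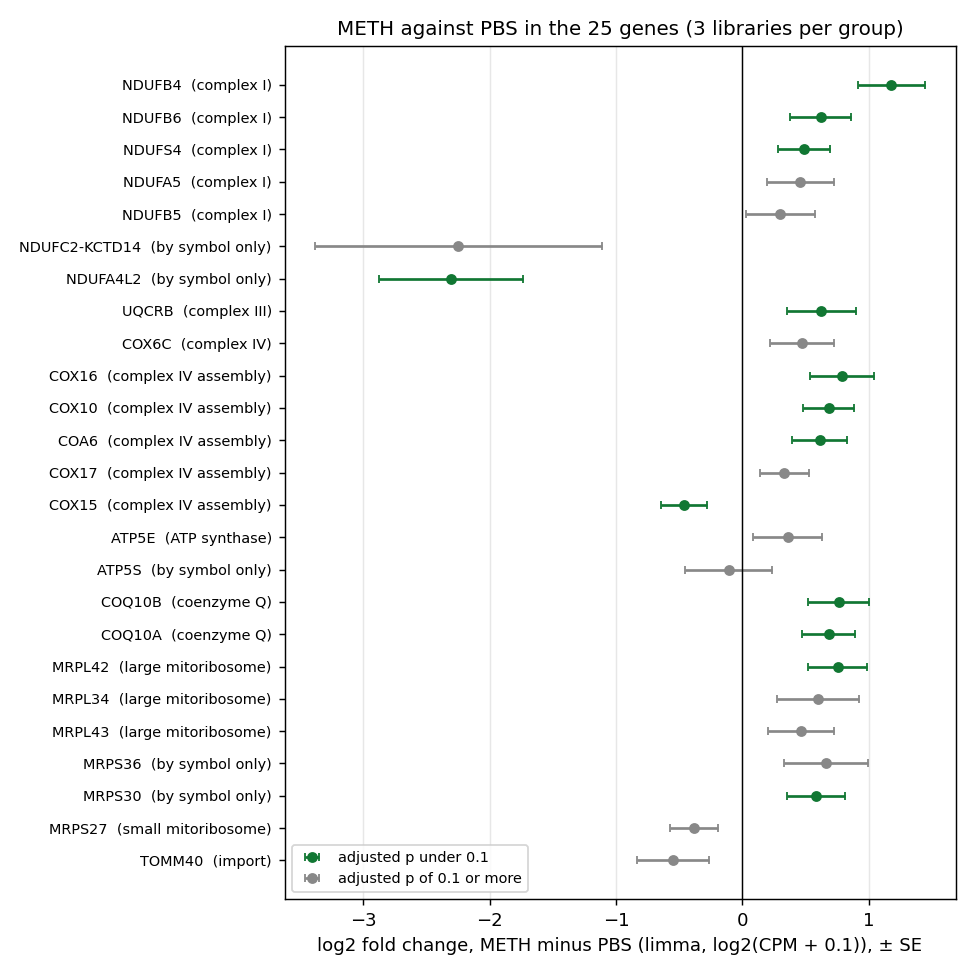
Log2 fold change of each of the 25 genes, METH minus PBS, from limma on log2(CPM + 0.1), with bars for the standard error and 3 libraries per group. Genes are ordered by role ("by symbol only" marks a read-through gene and genes since renamed or placed elsewhere), and green marks the 13 genes with an adjusted p under 0.1. NDUFB4 (1.18) has the highest value and NDUFA4L2 (-2.31) the lowest, and 19 points lie to the right of 0.

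Complex I, the NADH dehydrogenase, takes electrons from NADH into the chain and is the largest of the complexes. Of the genes with NDUF symbols 7 are in the table. The 3 that were up-regulated encode complex I subunits, and the 1 that was down-regulated, NDUFA4L2, is not a complex I subunit gene and carries the name COXFA4L2 in RefSeq. NDUFB4, an accessory subunit of the membrane arm, showed the largest rise. It was at 208, 293 and 315 CPM in PBS 10, 11 and 12, and at 722, 640 and 482 CPM in METH 1, 2 and 3. The lowest METH library thus lay well above the highest PBS library. Its PBS mean of 272 ± 56.7 CPM and METH mean of 615 ± 122 CPM (SD, 3 libraries each) were 2.26-fold apart, with a log2 fold change of 1.18 (SE 0.27, limma adjusted p = 0.0183). The exact permutation test gave p = 0.1 (2-sided), the smallest that 3 libraries against 3 allow, as it did for each gene below whose groups did not overlap. With a library left out the log2 fold change was 1.00 to 1.34. GENCODE 29 names 12 pseudogenes after NDUFB4, and how the authors assigned reads shared with them was not given in the sources used here.

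The other subunits of the membrane arm and the matrix arm moved less. NDUFB6, of the membrane arm, was at 36.8 to 54.9 CPM with PBS and 58.7 to 90.3 CPM with METH, a log2 fold change of 0.62 (SE 0.24, limma adjusted p = 0.0651). NDUFS4, an accessory subunit near the site of NADH oxidation, was at 42.9 to 61.1 CPM with PBS and 64.1 to 72.1 CPM with METH (log2 fold change 0.49, limma adjusted p = 0.0761). In both genes the groups did not overlap, but PBS 11 and METH 3 lay close together. For NDUFA5 and NDUFB5 the groups overlapped, with log2 fold changes of 0.46 and 0.30 (limma adjusted p = 0.138 and 0.314).

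NDUFA4L2 went the other way. It is a paralog of NDUFA4, a subunit of cytochrome c oxidase, and is best known as a gene that is induced by hypoxia and lowers oxygen use. Its level was 43.2, 171 and 38.7 CPM in PBS 10, 11 and 12, and 9.64, 24.6 and 9.79 CPM in METH 1, 2 and 3. All METH libraries lay below all PBS libraries, and the PBS mean of 84.4 ± 75.2 CPM (SD, n = 3) was set mostly by PBS 11. The METH mean was 14.7 ± 8.61 CPM (SD, n = 3), and the log2 fold change was -2.31 (SE 0.57, limma adjusted p = 0.0224). Without PBS 11 the gene still passed, and leaving out any 1 library gave log2 fold changes of -2.75 to -1.62. With edgeR adjusted over the 19951 genes, which was added once the data had been seen, its p was 0.0850 (12.2% of the table passed, 5.32% higher and 6.90% lower).

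NDUFC2-KCTD14 is annotated as a read-through transcript of the complex I subunit gene NDUFC2 and its neighbour KCTD14. It shares 431 exonic bases with NDUFC2 and 395 with KCTD14 on the same strand, so the origin of its reads is uncertain. It had 393, 26 and 574 reads in PBS 10, 11 and 12 and 122, 0 and 49 reads in METH 1, 2 and 3. PBS 11 lay within the METH range, and the log2 fold change of -2.25 (SE 1.13, limma adjusted p = 0.108) did not pass. It passed without PBS 11 (-3.44, limma adjusted p = 0.0315), without METH 1 (-3.14, limma adjusted p = 0.0859) and with a pseudocount of 1 (-1.19, limma adjusted p = 0.0991), and it was -1.18 without METH 2 and -1.46 without PBS 12, where it did not pass. NDUFC2 itself is not in the table and was not analysed here.

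**Figure D2:**
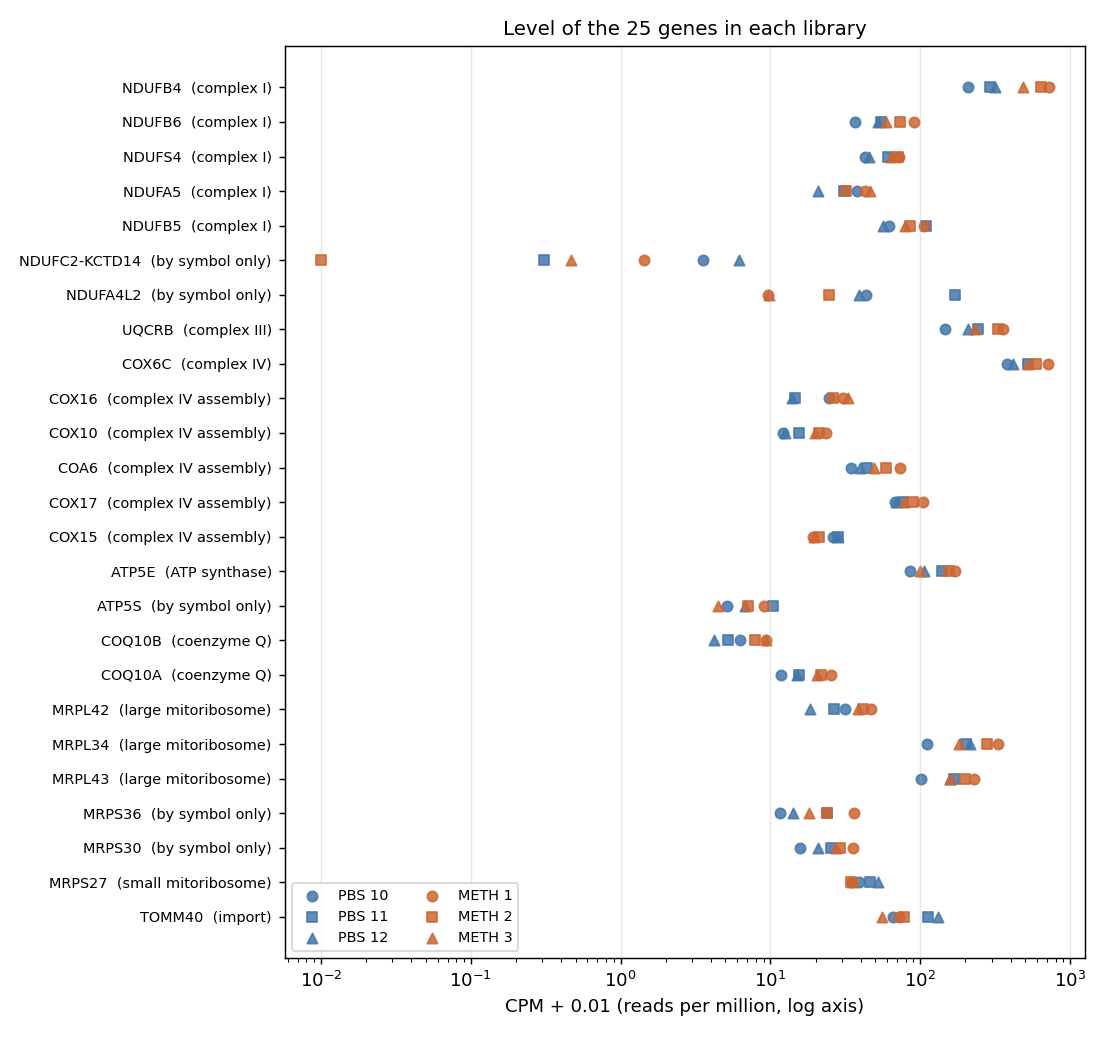
Level of the 25 genes in each of the 6 libraries, as CPM + 0.01 on a log axis, with PBS libraries in blue, METH libraries in orange and a marker shape for each library. NDUFB4, COX10 and COQ10A show separate groups, while PBS 11 stands far above the other libraries in NDUFA4L2 and METH 2 is at 0 in NDUFC2-KCTD14.

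Complex III passes electrons from ubiquinol to cytochrome c, and UQCRB, a small subunit needed for its assembly, is its only gene in the table. UQCRB was at 146, 244 and 207 CPM in PBS 10, 11 and 12, and at 358, 328 and 230 CPM in METH 1, 2 and 3. METH 3 lay below PBS 11, so that the groups overlapped. The log2 fold change was 0.63 (SE 0.27, limma adjusted p = 0.0806), past the threshold with all libraries but in only 2 of the 6 fits that left out a library.

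Complex IV, cytochrome c oxidase, reduces oxygen to water, and COX6C is its only structural subunit in the table. COX6C was at 380, 524 and 416 CPM in PBS 10, 11 and 12, and at 715, 593 and 520 CPM in METH 1, 2 and 3. METH 3 and PBS 11 were nearly level, and the log2 fold change of 0.47 (SE 0.25, limma adjusted p = 0.119) did not pass. Per kilobase of exon, the level of COX6C with PBS (143 CPM per kb) was close to that of NDUFB4 (144 CPM per kb), and with METH it was 199 against 325 CPM per kb. GENCODE 29 names 17 pseudogenes after COX6C.

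Of 5 assembly factors of complex IV, 3 were up-regulated (33.3% of the table was) and 1 was down-regulated (35.8% of the table was). COX10 and COX15 act in turn in making heme A, the cofactor that complex IV alone uses, COX10 by adding the farnesyl tail to heme B and COX15 by oxidising the product. COX10 was at 12.1, 15.5 and 12.5 CPM in PBS 10, 11 and 12, and at 23.6, 21.0 and 19.7 CPM in METH 1, 2 and 3, a log2 fold change of 0.68 (SE 0.20, limma adjusted p = 0.0351). COX15 was at 26.2, 28.1 and 28.1 CPM in PBS 10, 11 and 12, and at 19.3, 21.0 and 19.6 CPM in METH 1, 2 and 3, a log2 fold change of -0.46 (SE 0.18, limma adjusted p = 0.0675). The groups of both genes were separate, with COX10 higher and COX15 lower with METH, so that these 2 neighbours in the same synthesis differed in direction. COX15 shares 1069 exonic bases on the same strand with the gene AL133353.2, and it passed in 2 of the 6 fits that left out a library, against 4 for COX10.

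COX16 takes part in building the copper centre of complex IV. It was at 24.4, 14.6 and 14.0 CPM in PBS 10, 11 and 12, and at 30.3, 26.3 and 32.8 CPM in METH 1, 2 and 3, a log2 fold change of 0.79 (SE 0.25, limma adjusted p = 0.0407). PBS 10 lay just under METH 2, and 671 exonic bases are shared with the read-through gene SYNJ2BP-COX16. COA6, which acts in copper delivery to COX2, was at 34.3 to 44.0 CPM with PBS and 49.3 to 73.4 CPM with METH (log2 fold change 0.61, SE 0.22, limma adjusted p = 0.0520). COX17, the copper chaperone that feeds this path, was at 67.9, 76.8 and 69.3 CPM in PBS 10, 11 and 12, and at 103, 89.7 and 77.8 CPM in METH 1, 2 and 3. The METH libraries were all above the PBS libraries, but METH 3 exceeded PBS 11 by little, and the log2 fold change of 0.33 (SE 0.20, limma adjusted p = 0.146) did not pass. It shares 383 exonic bases with POPDC2 on the same strand.

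The sequences before the starts of these genes are shown because nuclear genes of the respiratory chain are known for common motifs there. They are the sites of nuclear respiratory factor 1 (NRF1), of the ETS family that includes GABPA, and of YY1. RefSeq windows of 300 bases (250 before and 50 after each start) were searched on both strands for the letters GCGCATGCGC (NRF1), CCGGAAGT (ETS) and AAGATGGC (YY1). The windows cover 21 of the 25 genes, all but ATP5S, NDUFB5, UQCRB and COX6C. NRF1 letters were found in 2 of 21 genes (9.52%, against 1.52% of 27305 genes with windows), ETS letters in 3 (14.3% against 4.95%) and YY1 letters in 5 (23.8% against 3.52%). At least 1 motif was found in 8 of 21 genes (38.1% against 9.33%), and no match overlapped another. The 27305 genes outnumber the 19951 protein-coding genes of GENCODE 29. No comparison with protein-coding genes alone, or with the genes of the table, was made. The matches below are in capitals, 5′ to 3′ on the strand of the gene, in GRCh38.p14. They lie at chr3:120596157-120596206 (plus strand) for NDUFB4, chr3:119677369-119677542 (minus) for COX17, chr10:99732108-99732155 (minus) for COX15, chr17:14069365-14069553 (plus) for COX10, chr12:93467502-93467549 (plus) for MRPL42, chr5:44808940-44808987 (plus) for MRPS30, chr5:72320197-72320244 (minus) for MRPS27 and chr5:53560640-53560687 (plus) for NDUFS4.
NDUFB4: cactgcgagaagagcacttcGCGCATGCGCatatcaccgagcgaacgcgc
COX17: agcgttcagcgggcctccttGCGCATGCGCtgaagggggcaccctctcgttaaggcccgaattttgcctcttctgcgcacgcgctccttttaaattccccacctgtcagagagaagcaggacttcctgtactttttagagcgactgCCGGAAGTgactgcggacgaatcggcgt
COX15: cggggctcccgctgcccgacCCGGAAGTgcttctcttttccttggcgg
COX10: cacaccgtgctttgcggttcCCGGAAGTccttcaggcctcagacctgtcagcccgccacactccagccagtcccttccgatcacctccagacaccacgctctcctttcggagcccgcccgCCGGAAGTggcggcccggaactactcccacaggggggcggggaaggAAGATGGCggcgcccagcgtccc
MRPL42: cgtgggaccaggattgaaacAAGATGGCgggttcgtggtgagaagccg
MRPS30: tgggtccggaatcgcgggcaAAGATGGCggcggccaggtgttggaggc
MRPS27: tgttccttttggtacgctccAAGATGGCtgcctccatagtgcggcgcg
NDUFS4: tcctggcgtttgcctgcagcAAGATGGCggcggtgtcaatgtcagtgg

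The NRF1 letters lie 159 bases before the start of NDUFB4 and 116 bases before that of COX17. COX10 holds ETS letters 119 and 19 bases before its start, COX15 holds them 8 bases before its start, and COX17 10 bases after it. All YY1 letters lie 8 to 27 bases after the start. Both genes with NRF1 letters had a higher fitted mean with METH, NDUFB4 (log2 fold change 1.18) and COX17 (0.33, not past the threshold). Besides COX17, ETS letters are found in COX10, which was up-regulated, and COX15, which was down-regulated. YY1 letters are found in NDUFS4, COX10, MRPL42 and MRPS30, which were up-regulated, and in MRPS27 (log2 fold change -0.38, not past the threshold). A relation between motif and direction was not tested. These are matches of letters, and binding of the factors was not measured.

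Of the genes with ATP5 symbols, ATP5E and ATP5S are in the table and neither passed. ATP5E (now ATP5F1E), the epsilon subunit of the F1 part, was at 84.8, 139 and 105 CPM in PBS 10, 11 and 12, and at 169, 155 and 100.2 CPM in METH 1, 2 and 3. METH 3 was below 2 of the PBS libraries, and the log2 fold change was 0.36 (SE 0.27, limma adjusted p = 0.232). ATP5S (now DMAC2L) was at 5.12 to 10.3 CPM with PBS and 4.43 to 9.02 CPM with METH (log2 fold change -0.11, limma adjusted p = 0.765). Both overlap exons of genes on the other strand, ATP5E over 1188 bases of TUBB1 and ATP5S over 1602 bases of CDKL1, and whether counting used the strand was not given in the sources used here.

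Coenzyme Q is the lipid that carries electrons from complex I to complex III. COQ10A and COQ10B encode related proteins that bind it and are needed for its function in respiration, and both were up-regulated. COQ10A was at 11.7, 15.4 and 14.9 CPM in PBS 10, 11 and 12, and at 25.5, 21.7 and 20.3 CPM in METH 1, 2 and 3 (log2 fold change 0.68, SE 0.21, limma adjusted p = 0.0378). COQ10B was at 6.26, 5.18 and 4.22 CPM in PBS 10, 11 and 12, and at 9.39, 7.87 and 9.28 CPM in METH 1, 2 and 3 (log2 fold change 0.76, SE 0.24, limma adjusted p = 0.0391). The groups of both paralogs were separate, and both passed in 4 of the 6 fits that left out a library.

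The mitochondrial ribosome translates the messages of the mitochondrial DNA, and 6 genes with its symbols are in the table. In the large subunit MRPL42 was up-regulated. It was at 31.2, 26.7 and 18.5 CPM in PBS 10, 11 and 12, and at 46.7, 41.4 and 38.4 CPM in METH 1, 2 and 3 (log2 fold change 0.75, SE 0.24, limma adjusted p = 0.0385), with separate groups. MRPL34 was far more abundant, at 110, 203 and 215 CPM in PBS 10, 11 and 12, and at 330, 280 and 181 CPM in METH 1, 2 and 3. METH 3 lay below PBS 11 and PBS 12, and the log2 fold change of 0.60 (SE 0.32, limma adjusted p = 0.124) did not pass. MRPL43 (log2 fold change 0.47, limma adjusted p = 0.132) had overlapping groups and shares 1170 exonic bases with SEMA4G on the other strand.

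Of the genes with small subunit symbols, MRPS30, whose protein is now placed in the large subunit as mL65, was up-regulated. It was at 15.8 to 25.4 CPM with PBS and 27.2 to 35.4 CPM with METH (log2 fold change 0.58, SE 0.23, limma adjusted p = 0.0677). MRPS36, now named KGD4 for its place in the 2-oxoglutarate dehydrogenase complex, was at 11.5, 23.8 and 14.0 CPM in PBS 10, 11 and 12, and at 35.9, 23.7 and 17.99 CPM in METH 1, 2 and 3. The groups overlapped and its log2 fold change of 0.66 (SE 0.33, limma adjusted p = 0.107) did not pass. MRPS27, an RNA-binding protein of the small subunit, was at 38.9, 46.3 and 52.0 CPM in PBS 10, 11 and 12, and at 35.1, 34.3 and 35.0 CPM in METH 1, 2 and 3. All METH libraries were below all PBS libraries, but the log2 fold change of -0.38 (SE 0.19, limma adjusted p = 0.107) did not pass.

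TOMM40 forms the channel through which nearly all nuclear-encoded proteins enter the mitochondrion, and is the only import gene among the 25. It was at 65.8, 112 and 132 CPM in PBS 10, 11 and 12, and at 72.4, 77.3 and 55.5 CPM in METH 1, 2 and 3. PBS 10 lay within the METH range, and the log2 fold change was -0.55 (SE 0.28, limma adjusted p = 0.112). Without PBS 10 it passed (limma adjusted p = 0.0242).

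Within each group the genes moved together from library to library. PBS 10 was the lowest PBS library in 18 of the 25 genes and PBS 11 the highest in 15, and METH 3 was the lowest METH library in 18 and METH 1 the highest in 20. PBS 10 and METH 3 are also the libraries with the greatest inferred depth (110.8 and 107 M reads). Set against the PBS mean of each gene, the median of the 25 genes on the log2 scale was -0.23, 0.21 and -0.03 in PBS 10, 11 and 12, and 0.71, 0.53 and 0.24 in METH 1, 2 and 3. METH 3 thus lay hardly above PBS 11. Over all 4101 genes the same medians ranged only from -0.07 to 0.15. With both PBS 10 and METH 3 left out, a setting added once the data had been seen, 14 of the 25 genes rose and 4 fell, where 34.9% and 32.3% of the table did.

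This order was shared by short genes of the table. The 25 genes have a median exonic length of 3172 bases, against 4593 over the table, and 11 of them are no longer than 2931 bases. Over the 888 genes of the table up to that length whose mean reached 1 CPM, the medians were -0.21, 0.15 and 0.09 in PBS 10, 11 and 12, and 0.47, 0.41 and 0.12 in METH 1, 2 and 3. Over the 913 genes longer than 6979 bases they lay between -0.04 and 0.06 with PBS and between -0.26 and -0.10 with METH. The median log2 fold change was 0.41 in the short genes and -0.32 in the long ones, and 55.7% and 45.8% of them had a higher fitted mean with METH. Among the 25 genes, 9 of the 11 short, 7 of the 10 between these lengths and 3 of the 4 long ones had a higher mean with METH. The linear trend with log2 length was also removed from each library, a setting added once the data had been seen. Then 19 of the 25 genes had a higher mean, with a median log2 fold change of 0.49 (0.14 over the table). By limma 16 genes rose while 3 fell, where 39.0% and 36.2% of the table did. The slopes removed (log2 per doubling of length) were 0.087, -0.026 and -0.050 in PBS 10, 11 and 12. In METH 1, 2 and 3 they were -0.048, -0.015 and 0.052. Slopes of either sign nearly cancel within each group, so the removal could hardly change the difference between the groups. The part of length in that difference was not tested.

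**Figure D3:**
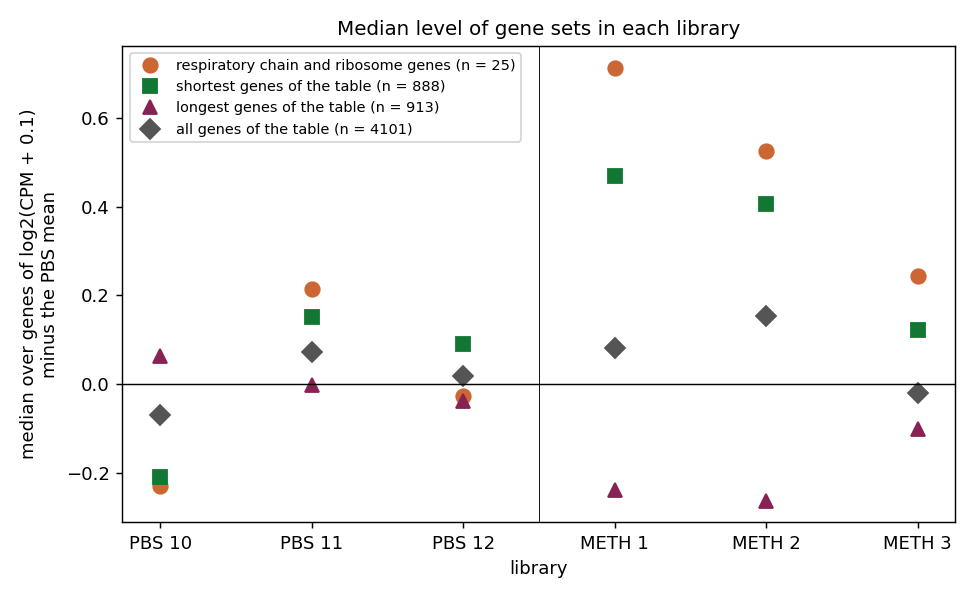
Median over genes of log2(CPM + 0.1) minus the PBS mean of the gene, in each of the 6 libraries, for the 25 genes, all 4101 genes, the 888 genes up to 2931 exonic bases and the 913 genes over 6979 exonic bases. The 25 genes and the short genes are lowest in PBS 10 and METH 3 of their groups, and METH 1 stands highest for the 25 genes at 0.71.

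The subunits that the mitochondrion makes itself were mostly lower with METH. Of the 15 genes of the mitochondrial DNA in the table, 11 were down-regulated by limma (73.3%, against 35.8% of the table). The 15 include, besides subunit genes, the tRNA gene MT-TS1, which is among the 11, and the ribosomal RNA gene MT-RNR2. By limma 0 were up-regulated, against 33.3% of the table (0 at an unadjusted p under 0.05, 0 with edgeR and 1, the ribosomal RNA gene MT-RNR2, with DESeq2). Their median log2 fold change was -1.19. In 13 of them all METH libraries lay below all PBS libraries (33.0% of the table). PBS 11 and METH 2 were, however, close in MT-ND4 (2593 and 2537 CPM) and MT-ND5 (1785 and 1745 CPM). The PBS libraries also differed, with MT-ATP8 at 20109, 8098 and 16569 CPM in PBS 10, 11 and 12. PBS 11 was the lowest PBS library in most of these genes, but the highest in 15 of the 25 nuclear genes. Nuclear and mitochondrial genes thus also differed in opposite directions between PBS 10 and PBS 11. Fits with a library left out are not given here for these genes. The 3 mitochondrially encoded complex IV genes were at log2 fold changes of -0.92 to -1.97 while COX6C was at 0.47. MT-CYB of complex III was at -1.71 while UQCRB was at 0.63, and the 7 genes of complex I were at -0.57 to -1.35. Of these, MT-CO2 (-0.92), MT-ND3 (-0.57) and MT-ND4L (-0.84) did not pass (limma adjusted p = 0.102, 0.210 and 0.108).

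**Figure D4:**
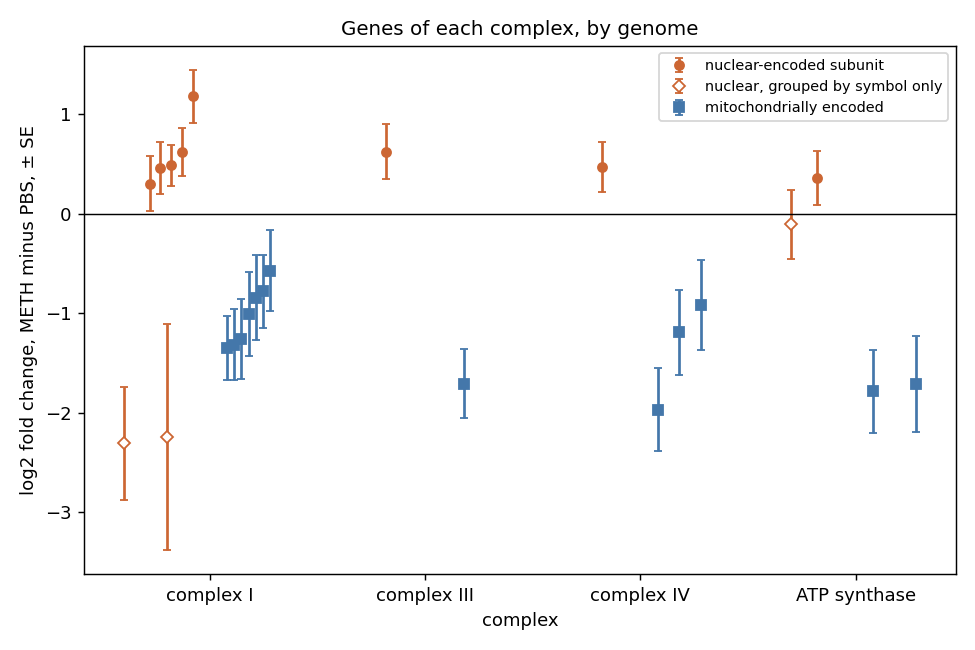
Log2 fold change (METH minus PBS, limma, with bars for the standard error, 3 libraries per group) of the nuclear-encoded (orange circles) and mitochondrially encoded (blue squares) subunit genes of each complex in the table, with open diamonds for NDUFA4L2, NDUFC2-KCTD14 and ATP5S, which are grouped by symbol only. All 13 mitochondrially encoded genes lie below 0, the 8 circles lie above it, and the 3 open diamonds lie below.

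Of a list of 124 related mitochondrial genes outside the symbol rule, 18 are in the table. Of these, 2 were up-regulated (TMEM126B, a complex I assembly factor, and SLC25A4, an ADP/ATP carrier), 11.1% against 33.3% of the table. Down-regulated were 7 (38.9%, near the 35.8% of the table). In all, 9 of the 18 (50%) passed, against 69.1% of the table. Among the 7 down-regulated genes were mitochondrial aminoacyl-tRNA synthetases, which charge the tRNAs used by the mitochondrial ribosome. LARS2 fell from 16.4 ± 3.97 to 9.33 ± 0.498 CPM (mean ± SD of 3 libraries, log2 fold change -0.78, limma adjusted p = 0.0371). AARS2 and EARS2 had log2 fold changes of -0.51 and -0.56 (limma adjusted p = 0.0876 and 0.0817), and YARS2, also a synthetase, had 0.46 and did not pass (limma adjusted p = 0.103). Also down-regulated were FOXRED1, another complex I assembly factor, UCP2, an uncoupling protein of the inner membrane, and GABPB1, the partner of the ETS factor GABPA, which fell from 20.9 ± 0.975 to 15.5 ± 1.97 CPM (SD, n = 3 each; log2 fold change -0.43, limma adjusted p = 0.0889). The median log2 fold change of the 18 genes was -0.39, against 0.49 for the 25 genes, 0.11 for the table and 0.36 for its protein-coding genes.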

How the data were processed

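RNA of 6 SH-SY5Y samples (3 METH, 3 PBS) was sequenced on the HiSeq platform. The authors deposited CPM values per library for 4101 genes, under headers that say FPKM, with group means and their own fold changes, log2 fold changes and p-values from DESeq2, which were not used. The aligner, counting tool, genome build and annotation are not given in the sources used here. Of the values, 99.8 to 100% were whole multiples of a step of their column (within 0.1 of a read), with no correction for gene length, so reads were recovered by division by the step. In PBS 10 the lowest value is 2 reads and the step was fitted over all low values. FPKM had been planned for, and the same fit was applied to CPM. No 2 libraries had the same values.

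The groups were tested in R 4.3.3 with limma 3.58.1 (a linear model with moderated variances that follow the mean level), fitted to log2(CPM + 0.1) of the whole table, with Benjamini-Hochberg adjustment and a threshold of 0.1, without covariates. Fold changes are on that scale and understate changes of low genes. Exact permutation tests were 2-sided. Alternatives were another pseudocount (1 or 0.01), a filter at 1 CPM, no trend, a threshold of 0.05, scaling of libraries to 1 median ratio, adjustment over the 19951 protein-coding genes, each library left out, and edgeR (4.0.16) and DESeq2 (1.42.0) on recovered reads. The fits were also run on simulated data in which genes varied independently and most did not change. This table differs in both respects, so that run does not bear on the calls given here. Positions, exonic lengths (union of exons) and gene types came from GENCODE 29 (GRCh38), which holds all 25 gene identifiers, and promoter windows from RefSeq.

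The members, gene lists and tests were chosen with earlier results of these data known. In each role group, the gene with the highest mean and that with the largest change are given by library, and all genes past the threshold are named. Some genes of the marker and related lists are not reported here. Tables and plots were made with matplotlib 3.10.9, scipy 1.17.1, pandas 2.3.3 and numpy 2.4.6 under Python 3.11.15.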

Additional observations from a re-analysis of the deposited data

How the results depend on the processing

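Over the alternatives tried, 19 or 20 of the 25 genes had a higher fitted mean with METH and the median log2 fold change stayed between 0.39 and 0.64, in a table that was itself selected on this comparison. The counts of genes past the threshold varied more. At a threshold of 0.05, 6 genes were up-regulated and 1 was down-regulated (17.0% and 19.1% of the table). Adjusted over the 19951 protein-coding genes these counts were 1 and 0 with limma (5.44% and 4.80% of the table). With edgeR they were 1 and 1 (5.32% and 6.90% of the table). At an unadjusted limma p under 0.05 they were 11 and 2, and the share of the table was not counted. The down-regulated count was 4 with the same median ratio (38.2% of the table), with edgeR (39.9%) and with DESeq2 (40.3%). It was also 4 without PBS 10 and METH 3 together (32.3% of the table). With each library left out, 1 to 15 genes were up-regulated (10.0 to 37.8% of the table) and 1 to 4 down-regulated (13.7 to 33.4%). In these fits the median log2 fold change was 0.39 to 0.64, and 19 or 20 genes had a higher mean. ATP5S (log2 fold change -0.34 to 0.17 with a library left out) changed its sign without PBS 11 (0.16) and without METH 3 (0.17). No paired analysis was possible because the PBS columns carry the numbers 10 to 12 while the METH columns carry 1 to 3. Adjustment over the table alone does not count the genes that were tested and left out of it. NDUFC2-KCTD14 had 0 reads in 1 library, and every other gene of the 25 had at least 393 reads in each library.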
